A study of Homo sapiens with 8 samples.

Results

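The soluble checkpoint ligand PD-L1s was given to spheres of the lung adenocarcinoma lines H23 and H1975, and their RNA was compared with that of untreated spheres of the same lines. The comparison used 4 of the series' 8 libraries, 1 PD-L1s and 1 untreated library for each line. These lines were taken because the depth of their paired libraries was similar, whereas EBC1 and H820 had PD-L1s libraries 4.67 and 4.28 times as deep as the untreated ones. H23 and H1975 are established non-small cell lung cancer lines, and the spheres are floating aggregates grown without serum and with fibroblast and epidermal growth factors and a B-27 supplement. PD-L1s, a synthetic soluble form of PD-L1, was added at 25 µg/ml, and the stimulation lasted 15 min without serum. The untreated spheres carried no other agent that the labels name. Whether they received a change of medium is not given in the sources used here, so the ligand and its addition to the culture cannot be told apart. Total RNA was sequenced after removal of ribosomal RNA, so unspliced and noncoding transcripts also enter the libraries. Reads were counted over exons, so intron reads of unspliced RNA are not counted as such. Nothing in the labels says that the lines were cultured more than once. With 1 pair a line the p-values measure only the spread of the response between these libraries, estimated mainly by sharing across genes.

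The immediate early response is the first wave of transcription after a cell receives a growth or stress signal. It needs no new protein, because the transcription factors that start it are already bound or are switched on by kinases such as ERK. Its first products are AP-1 subunits and EGR and NR4A factors, which act on later genes, together with phosphatases and inhibitors that end the signal. Most of these genes are compact and their RNAs are short-lived. In lung tumour cells the EGF receptor and other growth factor receptors feed the same cascade.

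The libraries held 15563010 counts for H23 PD-L1s, 20310707 for H23 untreated, 22241208 for H1975 PD-L1s and 23751862 for H1975 untreated. The PD-L1s library thus had 0.766 times the depth of the untreated one in H23 and 0.936 times in H1975. Levels are given as CPM, the count divided by the TMM-scaled library total and multiplied by 1e6. H1975 carried the epithelial markers of the labelled cell type, with a sum over 14 markers of 6181 CPM in PD-L1s and 6111 CPM in untreated spheres. In H23 the same sum was 190 CPM in PD-L1s and 198 CPM in untreated spheres, and the defining markers CDH1 and KRT19 were at most 2.20 CPM in both. NKX2-1, the lineage factor of lung adenocarcinoma, had 6.26 CPM in PD-L1s and 5.98 CPM in untreated H23, and 82.4 CPM in PD-L1s and 86.1 CPM in untreated H1975. The surfactant gene SFTPC had at most 1 count in any of the 4 libraries. The immune cell genes CD3E and MS4A1 and the blood gene HBB had at most 2 counts in each library. The blood gene HBA2 had 5 counts in PD-L1s and 4 in untreated H23, and 9 in PD-L1s and 13 in untreated H1975. The immune cell gene PTPRC had 8 in PD-L1s and 4 in untreated H23, and 7 in PD-L1s and 5 in untreated H1975. The 16 immune markers summed to 314 counts in PD-L1s and 328 in untreated H23, and to 3459 in PD-L1s and 3543 in untreated H1975.

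FOSB, FOS and EGR1 were higher in PD-L1s spheres of both lines and had the 3 smallest p-values of all genes tested. A gene is termed called where its edgeR adjusted p is under 0.05, which held for 0.0623% of 22466 genes tested. FOSB, a partner of JUN proteins in AP-1, had 247 CPM in PD-L1s H23 against 28.4 CPM in untreated H23, and 28.7 CPM in PD-L1s H1975 against 3.98 CPM in untreated H1975. Each PD-L1s library lay far above the untreated library of its own line, and the lower PD-L1s library (H1975) was level with the higher untreated one (H23). The ratio was 8.62-fold in H23 and 6.86-fold in H1975. Fitted over both lines, the change was log2 3.03 ± 0.098 (SE, n = 2 lines, edgeR adjusted p = 6.64e-17). FOS, the founding member of the same family, had 230 CPM in PD-L1s H23 against 49.8 CPM in untreated H23. In H1975 it had 88.8 CPM with PD-L1s against 19.8 CPM without. Its ratio was nearly the same in the lines, 4.60-fold in H23 and 4.44-fold in H1975, and the fitted change was log2 2.19 ± 0.083 (edgeR adjusted p = 1.30e-15). Here both PD-L1s libraries were above both untreated ones. EGR1, a zinc finger factor of the early response, had 444 CPM in PD-L1s H23 against 199 CPM in untreated H23, and 192 CPM in PD-L1s H1975 against 79.3 CPM in untreated H1975. It was higher with PD-L1s in each line, 2.23-fold in H23 and 2.41-fold in H1975, with overlap between groups across the lines. The fitted change was log2 1.21 ± 0.079 (edgeR adjusted p = 2.88e-10).

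**Figure D1:**
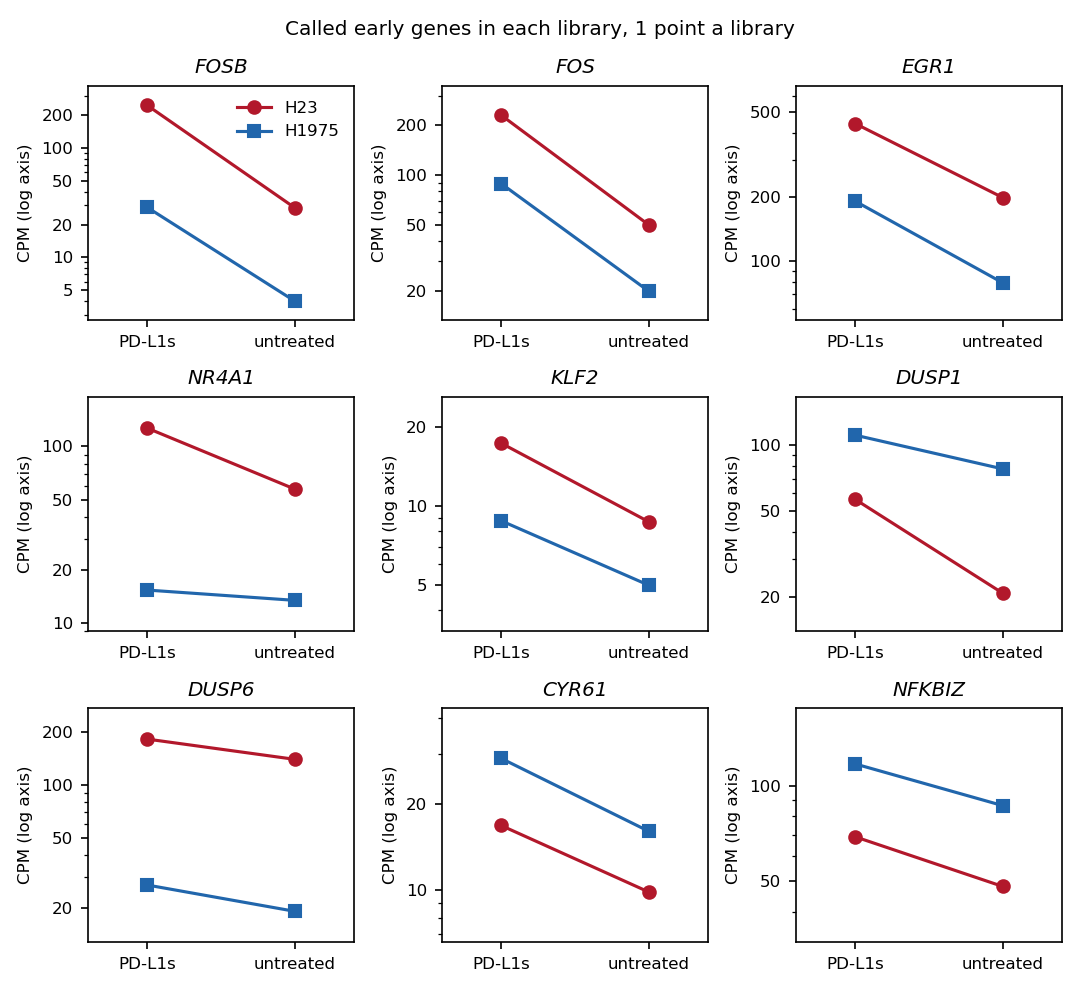
Level of 9 early genes called higher, in CPM on a log axis, with 1 point for each library and a line joining the PD-L1s and the untreated library of H23 (red circles) or H1975 (blue squares). Every line slopes down towards the untreated library, steeply in both lines for FOSB and FOS, and almost flat in H1975 for NR4A1 (15.4 CPM with PD-L1s against 13.4 CPM untreated).

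The promoters of FOSB, FOS, EGR1 and DUSP1 are shown because these are the 4 called early genes with the highest ratios in H23. Each is the 180 bases before the annotated first base, 5′ to 3′ on the gene's strand, from RefSeq on GRCh38.p14. They are FOSB at chr19:45467816-45467995 (+), FOS at chr14:75278648-75278827 (+), EGR1 at chr5:138465299-138465478 (+) and DUSP1 at chr5:172771196-172771375 (-). Capitals mark matches to the CArG box bound by serum response factor, to the cyclic AMP response element TGACGTCA and its part TGACG, and to the TATA box TATAAA.
FOSB: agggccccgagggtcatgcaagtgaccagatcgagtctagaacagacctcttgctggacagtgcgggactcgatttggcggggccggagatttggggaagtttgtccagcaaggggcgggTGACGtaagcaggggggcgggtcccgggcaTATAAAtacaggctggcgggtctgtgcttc
FOS: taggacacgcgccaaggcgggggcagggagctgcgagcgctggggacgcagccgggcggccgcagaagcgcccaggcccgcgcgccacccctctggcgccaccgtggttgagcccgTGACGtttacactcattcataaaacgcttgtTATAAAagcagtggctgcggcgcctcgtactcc
EGR1: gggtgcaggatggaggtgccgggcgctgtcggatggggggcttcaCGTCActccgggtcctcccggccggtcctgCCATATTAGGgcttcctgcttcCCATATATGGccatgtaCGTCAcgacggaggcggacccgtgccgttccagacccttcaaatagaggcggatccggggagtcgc
DUSP1: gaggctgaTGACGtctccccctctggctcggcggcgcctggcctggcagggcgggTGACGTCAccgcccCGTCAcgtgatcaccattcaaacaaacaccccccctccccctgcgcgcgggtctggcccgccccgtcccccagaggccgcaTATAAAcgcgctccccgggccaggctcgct
The search covered both strands, so TGACG also appears as its reverse complement CGTCA, and every TGACGTCA holds 2 overlapping matches of TGACG. FOSB, FOS and DUSP1 each had a TATAAA that began 30 to 33 bases before the start, and EGR1 had none. All 4 had at least 1 TGACG, at -60 in FOSB, -64 in FOS, -135 and -66 in EGR1, and at 4 places in DUSP1. The full TGACGTCA was in DUSP1, beginning at -125. EGR1 had 2 CArG boxes, beginning at -105 and -83.

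**Figure D2:**
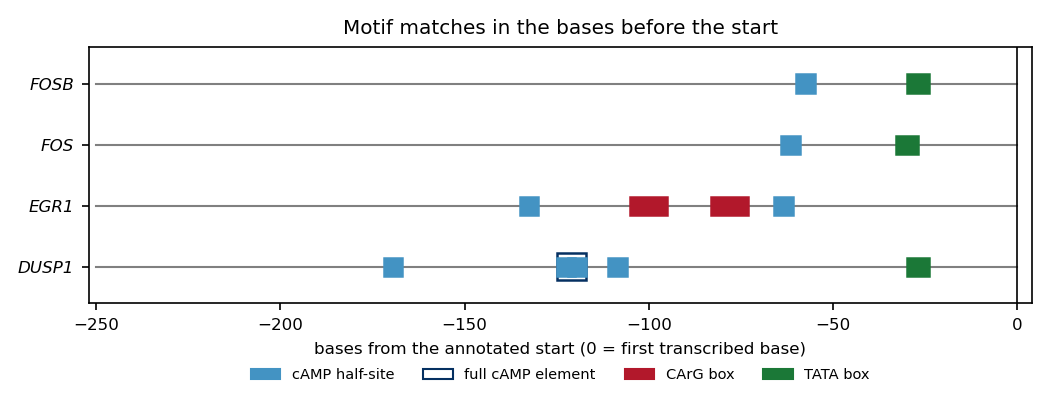
Motif matches in the 250 bases before the start of FOSB, FOS, EGR1 and DUSP1, by distance from the first transcribed base. Blue boxes are TGACG matches, the dark outline the full TGACGTCA, red boxes CArG boxes and green boxes TATAAA. Within this window each gene has 1 or more TGACG matches, while the red boxes are in EGR1.

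Over 35116 promoters of the same length (250 bases before the start), 1.16% held a CArG box, 1.65% TGACGTCA, 21.2% TGACG, 6.57% the AP-1 motif TGANTCA and 10.7% TATAAA. Promoters were listed for 11 of the 14 genes called in the fit. Among these 11, TGACG was in 4, TATAAA in 5, a CArG box in 1, TGACGTCA in 1 and TGANTCA in 0. The 4 with TGACG are the 4 genes shown above. The 11 genes have 13 promoters, and a gene counts if any of its promoters matches, whereas the shares above are per promoter. A match describes the letters in the window and is not a measured site. Bases farther upstream were not searched, so a motif missing here can lie outside the window.

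In all, 14 genes were called, and all 14 were higher with PD-L1s (0.0623% of genes tested). The edgeR test called 0 genes lower (0%), with 337 lower and 437 higher at an unadjusted p under 0.05. DESeq2 and limma-voom also called 0 lower. Over all genes the median change was log2 -0.0044, and 4985 genes (22.2%) were higher in both lines against 5236 (23.3%) lower in both. These are the shares to set beside the same counts of each list below. The called genes comprised 9 early response genes, 4 genes of the duplicated NPIP family and 1 noncoding transcript. For 2 pairs an exact permutation test of a single value cannot give a two-sided p below 0.5, so the calls rest on the spread that edgeR shares across genes.

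**Figure D3:**
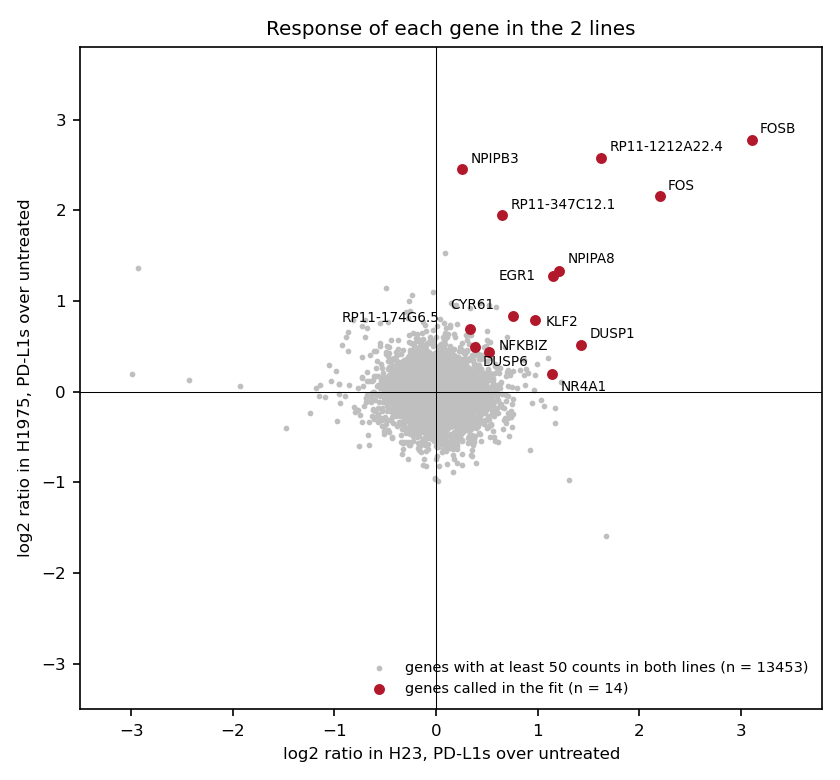
Log2 ratio of PD-L1s over untreated in H23 (x axis) against that in H1975 (y axis) for 13453 genes that reached 50 counts in both lines (grey), with the 14 called genes in red. Called genes lie above 0 on both axes, FOSB farthest out at 3.11 and 2.78, and the grey points crowd around 0.

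Among the other EGR and NR4A factors, NR4A1 was called and the rest were not. NR4A1, an orphan nuclear receptor, had 127 CPM in PD-L1s H23 against 57.3 CPM in untreated H23, a 2.21-fold ratio. In H1975 it had 15.4 CPM with PD-L1s against 13.4 CPM without, 1.14-fold, and there the 95% counting interval of the log2 ratio, -0.05 to 0.43, included 0. The fitted change of log2 0.77 ± 0.130 (edgeR adjusted p = 7.97e-03) therefore rested on H23. NR4A2, its close relative, had log2 ratios of 0.37 in H23 and 0.35 in H1975 and did not pass (edgeR adjusted p = 0.315). EGR3 had fitted log2 0.71 at 0.431 to 1.29 CPM in the 4 libraries, and did not pass. Of the 9 tested genes of the EGR and NR4A list, which includes the EGR co-repressors NAB1 and NAB2, 2 were called, 6 were higher in both lines and 1 was lower in both, with a median fitted change of log2 0.37.

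Of the 13 AP-1 subunits tested, FOSB and FOS were called and the other 11 were not. JUN, the main partner of FOS proteins, differed between the lines. It had 110 CPM in PD-L1s H23 against 46.8 CPM in untreated H23, while H1975 had 177 CPM with PD-L1s against 164 CPM without. The log2 ratio was 1.23 in H23 and 0.11 in H1975, and JUN did not pass (edgeR adjusted p = 0.0967). JUNB had log2 ratios of 0.35 and 0.10, JUND -0.05 and 0.02, FOSL1 -0.15 and 0.20, and FOSL2 -0.09 and -0.02 in H23 and H1975. The median of the AP-1 list was log2 0.04, near that of all genes.

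KLF2, a Krüppel-like factor, was higher to a similar degree in both lines. It had 17.4 CPM in PD-L1s H23 against 8.70 CPM in untreated H23, and 8.79 CPM in PD-L1s H1975 against 4.98 CPM in untreated H1975. The ratios were 1.97-fold and 1.73-fold, and the fitted change log2 0.92 ± 0.147 (edgeR adjusted p = 4.07e-03). The other 19 members of the list of Krüppel-like and other early factors did not pass. KLF6 and KLF4 each had fitted log2 0.26. MYC had log2 ratios of -0.13 in H23 and 0.39 in H1975, so its sign differed between the lines.

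The dual-specificity phosphatases DUSP1 and DUSP6, which remove phosphate from MAP kinases, were the members of the list of kinase brakes that were called. DUSP1, a nuclear phosphatase that is itself an early gene, had 56.4 CPM in PD-L1s H23 against 20.7 CPM in untreated H23, and 111 CPM in PD-L1s H1975 against 77.8 CPM in untreated H1975. The log2 ratio was 1.43 in H23 and 0.52 in H1975, and the fitted change log2 0.94 ± 0.124 (edgeR adjusted p = 3.08e-04). The counting intervals of the log2 ratios, 1.28 to 1.60 in H23 and 0.43 to 0.61 in H1975, do not overlap. DUSP6, a cytoplasmic phosphatase selective for ERK, had 181 CPM in PD-L1s H23 against 139 CPM in untreated H23, and 27.0 CPM in PD-L1s H1975 against 19.2 CPM in untreated H1975. Its rise was small in both lines, 1.30-fold and 1.40-fold, with a fitted log2 of 0.43 ± 0.082 (edgeR adjusted p = 0.0354). The remaining 13 members of the list did not pass. Of the 15, 7 were higher in both lines and 3 lower in both, and the median was log2 0.00. DUSP2 had fitted log2 0.63, DUSP5 0.20 and DUSP4 0.08, while the ERK pathway inhibitors SPRY2 and SPRY4 had -0.06 and -0.08.

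CYR61, also named CCN1, encodes a secreted matrix protein and is a target of YAP and of serum response factor. It had 16.8 CPM in PD-L1s H23 against 9.85 CPM in untreated H23, and 28.9 CPM in PD-L1s H1975 against 16.1 CPM in untreated H1975. The ratios of 1.69-fold and 1.79-fold were close to each other, and the fitted change was log2 0.81 ± 0.114 (edgeR adjusted p = 6.67e-04). CTGF, also named CCN2, a related matrix protein, had 3.10 CPM in PD-L1s H23 against 2.90 CPM in untreated H23, and 11.8 CPM in PD-L1s H1975 against 3.93 CPM in untreated H1975. The difference lay in H1975, and CTGF did not pass (log2 1.03 ± 0.241, edgeR adjusted p = 0.202). CYR61 was the 1 member called among 18 YAP and TAZ targets tested, whose median was log2 0.04.

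NFKBIZ, an inhibitor-like nuclear partner of NF-kB, had 69.0 CPM in PD-L1s H23 against 48.1 CPM in untreated H23, and 117 CPM in PD-L1s H1975 against 86.5 CPM in untreated H1975. It was higher by 1.43-fold in H23 and 1.35-fold in H1975, with a fitted change of log2 0.48 ± 0.079 (edgeR adjusted p = 7.29e-03). It was the 1 member called of 25 NF-kB targets, 10 of which were higher and 3 lower in both lines. The chemokine gene CXCL8 had log2 ratios of 0.70 in H23 and 0.24 in H1975, and IL6, expressed in H1975, had 12.6 CPM with PD-L1s against 7.19 CPM without. Neither passed (edgeR adjusted p = 0.429 for CXCL8 and 0.582 for IL6). NFKBIA, the classical feedback inhibitor, had log2 ratios of -0.04 in H23 and 0.11 in H1975.

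None of the 28 short-lived early proteins and RNA-decay factors was called by edgeR, and 0 of 20 late targets of MAP kinase signalling, although 7 and 2 of them were higher at an unadjusted p under 0.05. PPP1R15A, a phosphatase subunit of the stress response, came nearest, with log2 ratios of 0.58 in H23 and 0.30 in H1975 (edgeR adjusted p = 0.0614). The cyclin CCNL1 had 0.40 and 0.28, and the survival factor MCL1 0.20 and 0.17, both with the same sign in the lines. IER2 had 0.32 in H23 and 0.0039 in H1975. The late targets had a median of log2 0.13, against 0.04 for the short-lived early proteins, and 9 of the 20 were higher in both lines, which holds for 22.2% of all genes tested.

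The NPIP family gave 4 calls. Its members are near-identical copies of a segment of chromosome 16, so reads can fall on any copy and the counts of each are uncertain. RP11-1212A22.4, matched to NPIPA9 by its gene identifier, had 200 counts in PD-L1s H23 against 78 in untreated H23, and 334 counts in PD-L1s H1975 against 56 in untreated H1975. Both PD-L1s libraries were above both untreated ones (log2 2.18 ± 0.192, edgeR adjusted p = 1.45e-07), and it shares 1000 exonic bases with the pseudogene PKD1P5. NPIPA8 had 63 counts in PD-L1s H23 against 31 in untreated H23, and 70 counts in PD-L1s H1975 against 27 in untreated H1975 (log2 1.41 ± 0.271, edgeR adjusted p = 0.0354). The other 2 calls, NPIPB3 and RP11-347C12.1 (matched to NPIPB13), were larger in H1975. NPIPB3 had 73 counts in PD-L1s H23 against 76 in untreated H23, while H1975 had 666 counts with PD-L1s against 127 without. A family member that was not called moved the other way in 1 line. NPIPB11 had 137 counts in PD-L1s H23 against 955 in untreated H23, and 208 counts in PD-L1s H1975 against 204 in untreated H1975.

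The noncoding call was RP11-174G6.5, a transcript with a single exon whose annotation class is sense overlapping. It had 22.1 CPM in PD-L1s H23 against 17.5 CPM in untreated H23, and 53.2 CPM in PD-L1s H1975 against 32.7 CPM in untreated H1975 (log2 0.54 ± 0.101, edgeR adjusted p = 0.0301). It was higher in both lines, by 1.27-fold in H23 and 1.62-fold in H1975.

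The calls differed in how firmly they held over 10 other settings of scaling, filter and test with these 4 libraries paired by line. FOSB, FOS and EGR1 passed in 10 of 10, with an adjusted p of at most 0.0101. RP11-1212A22.4 passed in 9, CYR61 in 8, NFKBIZ and DUSP6 in 6, KLF2 and NPIPA8 in 5, DUSP1, NR4A1 and NPIPB3 in 4, and RP11-347C12.1 in 3. RP11-174G6.5, which is not protein-coding, passed in 4 of the 9 settings that tested it. In a fit over all 8 libraries FOSB, FOS and RP11-1212A22.4 kept the call, and EGR1 (log2 1.47, edgeR adjusted p = 0.499) and the other 10 genes did not. For DUSP1 the adjusted p rose to 0.9997 with robust edgeR, and for NR4A1 and NPIPB3 to 0.99998 with DESeq2. Without a filter on low counts 3 genes were called, and with DESeq2 size factors 5. With each pair thinned to equal depth 5 kept the call, FOSB, FOS, EGR1, RP11-1212A22.4 and CYR61. With the spread taken from all lines, the H23 pair alone left FOSB called (edgeR adjusted p = 0.0148) and the H1975 pair alone left 0 of the 14 genes called.

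No gene was called lower. Nearest by p among the genes lower in both lines were 2 protein-coding genes and 8 pseudogenes and noncoding RNAs. FBXO2, a subunit of a ubiquitin ligase, had 71.2 CPM in PD-L1s H23 against 90.5 CPM in untreated H23, and 9.25 CPM in PD-L1s H1975 against 13.7 CPM in untreated H1975. It was lower in both lines and did not pass (log2 -0.43 ± 0.094, edgeR adjusted p = 0.121). The pseudogene RP5-857K21.9 had fitted log2 -0.71, with 0 counts in PD-L1s and 1 in untreated H1975, and the pseudogenes RPS2P46, AC121253.1 and RPL13AP5 had -0.61, -0.81 and -0.59. The noncoding LINC00310 had -0.59, and RN7SKP255, a copy of the 7SK RNA, had -0.71. RP11-160E2.6 had -0.40, with 2 counts in PD-L1s and 3 in untreated H23. RN7SL4P, a copy of the signal recognition particle RNA, had -0.51, with log2 ratios of -1.15 in H23 and -0.05 in H1975. CLN8, a lysosomal disease gene that shares 720 exonic bases with RP11-439C15.6, had -0.34. NPIPB11 (fitted log2 -1.26) and ANXA8L1 (-1.42) had an edgeR adjusted p = 0.173 each, smaller than that of these genes other than FBXO2, but were not lower in both lines.

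Within each line the number of tested genes past a 2-fold ratio was small. A gene had to pass the expression filter of the fit and reach 50 counts in the line, so that 4 genes below the filter with at least 50 counts in a PD-L1s library (KRT6A, KRT1 and S100A7A in H1975 and RP11-452K12.6 in H23) are not in these counts. In H23, 24 genes were over 2-fold higher with PD-L1s (0.155% of the 15446 that reached 50 counts) and 14 lower (0.0906%). In H1975, 18 were higher (0.120% of 15046) and 4 lower (0.0266%). Of 13453 genes with enough counts in both lines, 5 were over 2-fold higher in both (0.0372%), namely FOSB, FOS, EGR1, RP11-1212A22.4 and NPIPA8, and 0 were lower in both. At 1.5-fold 10 were higher in both (0.0743%), which added KLF2, CYR61, RP11-347C12.1, the noncoding CH17-373J23.1 and the mitochondrial tRNA gene MT-TP. At that size 2 were lower in both (0.0149%), RN7SKP255 and the mitochondrial tRNA gene MT-TQ. With 1 library for each line and condition these are descriptions of the libraries.

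FOSB had the largest ratio of any tested gene in H23 and the next largest rise after PI3 in H1975. PI3, an elastase inhibitor of stressed epithelium, had 56 counts in PD-L1s and 3 in untreated H1975. It had 2 counts in PD-L1s and 10 in untreated H23. ANXA8L1, an annexin, had 42 counts in PD-L1s and 122 in untreated H1975, and 0 in both H23 libraries. In H23 the largest falls were the pseudogene HLA-V, with 7 counts in PD-L1s and 109 in untreated spheres, RN7SL5P, another copy of the signal recognition particle RNA, with 92 in PD-L1s and 925 in untreated spheres, and NPIPB11. The other falls among the 5 largest were RN7SL767P and RN7SL752P in H23, and a copy of SNORA69, RP11-329B9.4, RPL39P3 and MAP1LC3A, an autophagy gene, in H1975.

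Some squamous and skin genes had more counts in the PD-L1s library of H1975 than in its untreated library, and were chosen for description after their values were seen. S100A7, an antimicrobial protein of stressed squamous epithelium, had 110 counts in PD-L1s H1975 against 38 in untreated H1975, and 2 in each H23 library (edgeR adjusted p = 0.0614). KRT6A had 119 counts in PD-L1s H1975 against 2 in untreated H1975, KRT1 had 89 with PD-L1s against 0 untreated, S100A7A had 50 with PD-L1s against 0 untreated, and all 3 had 0 counts in H23 and fell below the expression filter. The 20 squamous and skin markers summed to 42.1 CPM in PD-L1s and 39.1 CPM in untreated H23, and to 169 CPM in PD-L1s and 148 CPM in untreated H1975. KRT5, KRT14 and FLG had at most 3 counts in any of the 4 libraries, and KRT6B had 11 in PD-L1s and 8 in untreated H1975. In bulk RNA, more cells of a type and more RNA per cell cannot be told apart. The part of these genes in the other H1975 results was not tested.

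**Figure D4:**
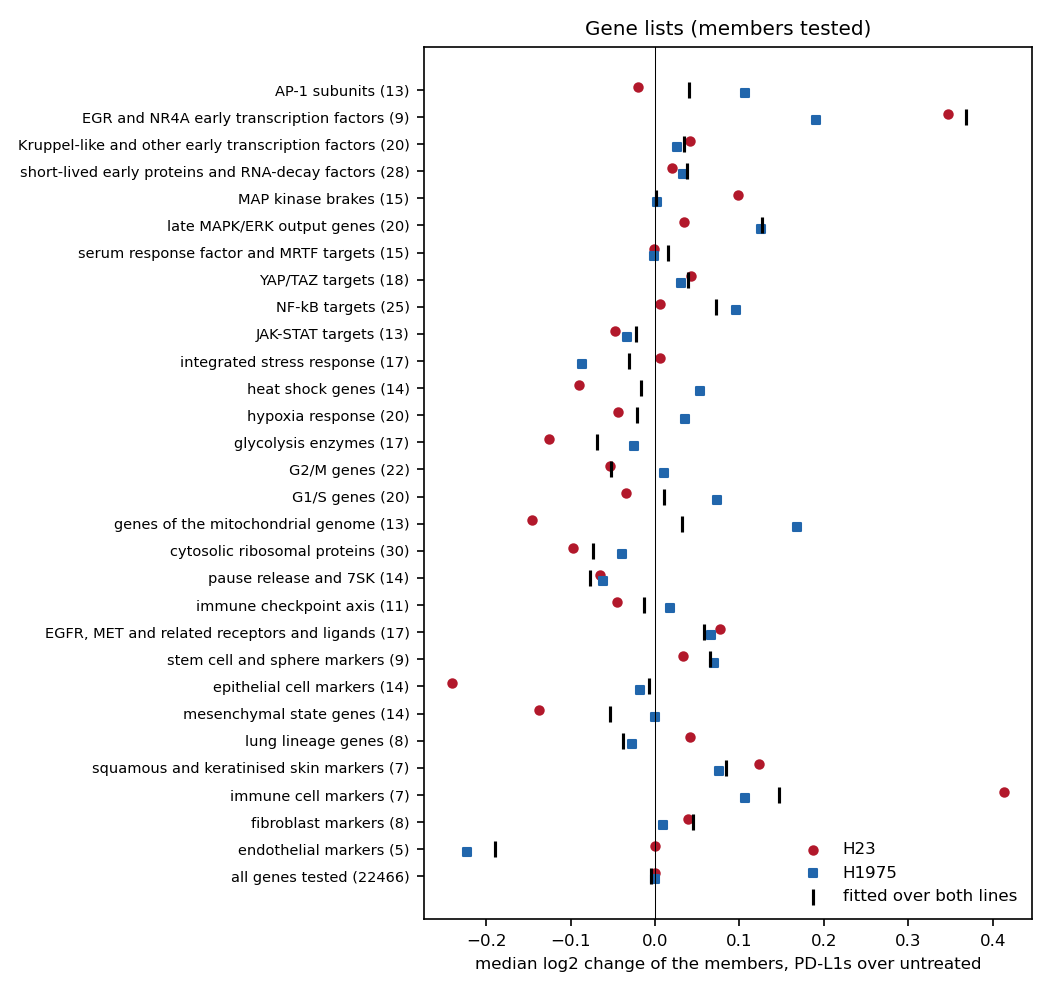
Median log2 change, PD-L1s over untreated, of the tested members of each gene list, in H23 (red), in H1975 (blue) and fitted over both lines (black tick), with the number of members tested in parentheses. The EGR and NR4A list has the highest fitted median (0.37), all genes sit at 0, and the mitochondrial list is split, at -0.15 in H23 and 0.17 in H1975.

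Lists of growth, metabolism and the cell cycle had 0 members called by edgeR. At an unadjusted p under 0.05 the glycolysis and G2/M lists had 1 lower each, pause release 2 lower and hypoxia 1 higher. The 17 glycolysis enzymes had a median of log2 -0.07, with 1 higher and 7 lower in both lines. Of 30 cytosolic ribosomal protein genes 0 were higher and 12 lower in both lines, and their median was also log2 -0.07. Over all genes tested 22.2% were higher and 23.3% lower in both lines. The pause-release list, whose factors free RNA polymerase held near the start of genes, had a median of log2 -0.08, and its HEXIM1, an inhibitor of the P-TEFb kinase, had log2 ratios of -0.32 in H23 and -0.15 in H1975. The 22 G2/M genes had a median of log2 -0.05 and the 20 hypoxia genes -0.02. The 13 protein-coding genes of the mitochondrial genome had a median of -0.15 in H23 and 0.17 in H1975, while their summed level was 17067 CPM in PD-L1s and 16849 CPM in untreated H23, and 27037 CPM in PD-L1s and 25121 CPM in untreated H1975. The median and the sum thus differed in sign in H23. Immune markers had a median of log2 0.15 over 7 tested, and their sum was 17.4 CPM in PD-L1s and 14.4 CPM in untreated H23, and 179 CPM in PD-L1s and 170 CPM in untreated H1975.

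The checkpoint genes themselves gave little signal. CD274, which encodes PD-L1, had 251 counts in PD-L1s H1975 against 213 in untreated H1975. In H23 it had 2 counts with PD-L1s against 5 without. The fitted change of log2 0.31 ± 0.210 did not pass, and its sign in H23 (log2 -0.38) was opposite to that in H1975 (0.34). PDCD1, which encodes the receptor PD-1, had 1 count in each H23 library and 0 in each H1975 library. CD80, another partner of PD-L1, had 0 counts in the 4 libraries. A count of 0 allows up to 3 counts, and such counts do not show that the protein is absent.

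The genomic span of the called genes is given as a description. The 13 called protein-coding genes had a median span, first to last exon base on GRCh37, of 7185 bases (range 3058 to 36676) and a median of 5 exons. All 15318 protein-coding genes tested had medians of 29476 bases and 10 exons. There were 5 calls among 1594 genes under 5 kb, 3 among 4359 genes of 5 to 20 kb and 5 among 4066 genes of 20 to 50 kb. There were 0 among 2538 genes of 50 to 100 kb and 0 among 2761 longer ones. NFKBIZ and NR4A1 were longer than the median of all protein-coding genes tested. The shortest spans were those of KLF2 (chr19:16435628-16438685, 3058 bases), DUSP1 (chr5:172195093-172198198, 3106 bases) and CYR61 (chr1:86046444-86049645, 3202 bases). FOS spanned 3457 bases (chr14:75745477-75748933), EGR1 3826 (chr5:137801179-137805004) and FOSB 7185 (chr19:45971253-45978437). DUSP6 spanned 6040 bases (chr12:89741009-89747048), NFKBIZ 33030 (chr3:101546837-101579866) and NR4A1 36676 (chr12:52416616-52453291). Read counts per gene were those over exons.

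**Figure D5:**
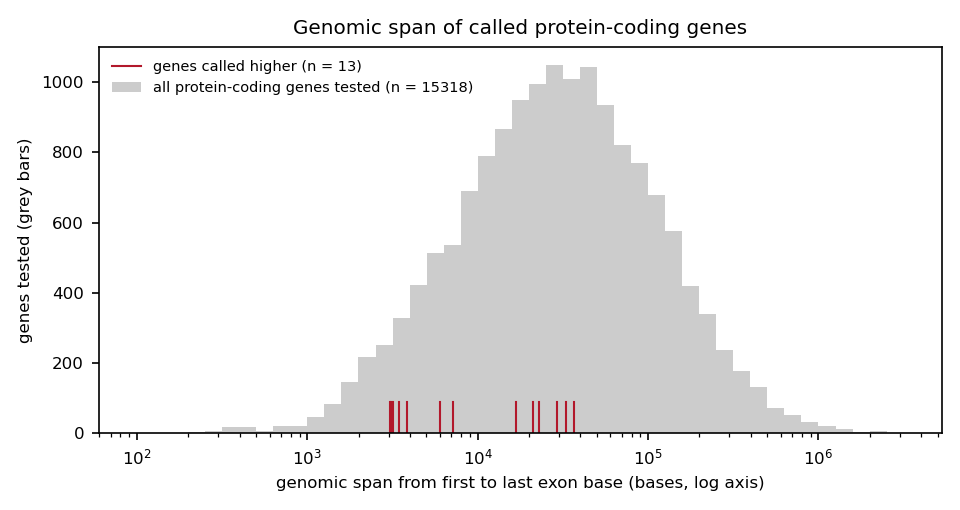
Genomic span of the 13 called protein-coding genes (red ticks) over the distribution for all 15318 protein-coding genes tested (grey bars), with the span in bases on a log axis and the number of genes on the y axis. The red ticks run from 3058 to 36676 bases, and the grey distribution has its median at 29476 bases.

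The response of H23 and H1975 was set against that of EBC1, a squamous line, and H820, an adenocarcinoma line, in a fit over all 8 libraries. The depth gap of EBC1 and H820 and the pair of lines cannot be told apart in it. The difference was called for 2 of 24185 genes (0.00827%), both with the lower response in H23 and H1975. The edgeR test called 0 with the higher response, with 540 higher and 1462 lower at an unadjusted p under 0.05, and 1150 higher and 375 lower with library size alone. DESeq2 called 5 higher and limma-voom 0. The 2 genes called by edgeR were the small nucleolar RNA SNORD3C (difference of log2 -7.58 ± 0.459, edgeR adjusted p = 2.33e-03) and the noncoding RP11-160E2.6 (-7.34 ± 0.654, 0.0278). SNORD3C had 332 CPM in PD-L1s EBC1 against 1.92 CPM in untreated EBC1, a log2 ratio of 7.24, and a log2 ratio of 2.35 in H820. RP11-160E2.6 had log2 ratios of 7.25 in EBC1 and 0.44 in H820, so its large rise was in EBC1. Both genes had at most 0.302 CPM in either H23 library. DESeq2 and limma-voom called neither gene. Without the EBC1 pair 1464 genes were called, 1 of the 2 among them, without the H820 pair 47, without the H23 pair 2 and without the H1975 pair 0. The median difference over all genes was log2 -0.11 with TMM and 0.09 with library size alone.

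For FOSB, FOS and EGR1 the difference of responses was not called. FOSB had a log2 ratio of 3.10 in H23 and 2.76 in H1975, beside 1.61 in EBC1 and 3.08 in H820, a difference of 0.73 ± 0.390 (edgeR adjusted p = 0.626). EGR1 had 1.15 in H23 and 1.27 in H1975, beside 0.55 in EBC1 and 3.22 in H820 (difference -0.59 ± 0.644, edgeR adjusted p = 0.813). FOS had 2.19 in H23 and 2.15 in H1975, beside 1.14 in EBC1 and 3.41 in H820 (difference 0.0040 ± 0.548). The H23 and H1975 ratios of FOS and EGR1 both lay between those of EBC1 and H820. DUSP6 had 0.37 in H23 and 0.49 in H1975, 0.43 in EBC1 and -0.59 in H820, so its rise was not seen in every line (difference 0.44 ± 0.289, edgeR adjusted p = 0.674). The same held for KLF2 (-0.28 in H820), NPIPB3 (-0.92 in EBC1 and -0.08 in H820), RP11-347C12.1 (-0.77 in EBC1) and RP11-174G6.5 (-0.12 in EBC1). The other called genes had positive ratios in each line.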

How the data were processed

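The authors deposited raw counts of read pairs per gene, 1 table a library. The submitters' processing notes name STAR 2.7.3a, the build GRCh37 and, for counting, featureCounts (Subread 2.0.0). Exons of GENCODE genes (basic set, lifted over to this build) were summed in the reverse-stranded mode per the file headers, with primary alignments of pairs that had both ends aligned, a mapping quality of at least 1, and overlapping genes each credited. Exonic length, the other deposited column, was not used in a test.

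From the counts of 60106 genes, the 4 libraries of H23 and H1975 were fitted with edgeR 4.0.16 in R 4.3.3 (quasi-likelihood F test, TMM scaling, terms for line and treatment, minimum count 10 with the line as group). P-values were two-sided and adjusted by Benjamini-Hochberg over the 22466 genes tested. The labels pair the libraries by line. The fit leaves 1 residual degree of freedom, so the spread comes mainly from sharing across genes (prior degrees of freedom 23.7). The edgeR package estimates that spread by an older and a newer method. The older one took every gene's spread from the trend alone and called 28 genes, among them NPIPB11 and JUN, which moved in 1 line. The newer one keeps a spread for each gene and called 14. The newer was used, a choice made after both results had been seen. Standard errors are the fitted change divided by the square root of F.

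Ratios within a line use CPM with a prior count of 5, for genes with at least 50 counts in 1 of the 2 libraries. Counting intervals are exact, at 95%, and cover counting error only, as does the limit of 3 counts for a count of 0. The difference from EBC1 and H820 was fitted over 8 libraries with 2 residual degrees of freedom. The fit was tested on simulated data with 200 changed genes. Alternatives were DESeq2 1.42.0, limma-voom (limma 3.58.1), other scalings and filters, thinning, no pairing and leaving out a pair. Members of 30 gene lists were counted with no set test. Of 478 symbols, 477 were matched.

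The named genes are all called genes, FOSB, FOS, EGR1, CD274, PDCD1 and CD80, genes nearest to being called lower, up to 4 members of each list by p, and the 5 largest rises and falls of each line. Other genes and list members were named after their values were seen. The genes and lists were chosen with earlier results of these data known. Promoters came from RefSeq on GRCh38.p14 and were matched by symbol, so their positions are not those of the GRCh37 counts.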

Additional observations from a re-analysis of the deposited data

Results flagged for a closer look

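Against the response of EBC1 and H820, that of H23 and H1975 was lower by log2 -7.58 for SNORD3C and by log2 -7.34 for RP11-160E2.6 in the edgeR interaction test (adjusted p = 2.33e-03 and 0.0278). Both had over 300 CPM in PD-L1s EBC1 against 1.92 CPM in untreated EBC1, and lost the call without the H1975 pair, with DESeq2 and with limma-voom. The log2 ratios in EBC1 and H820 were 7.24 and 2.35 for SNORD3C, and 7.25 and 0.44 for RP11-160E2.6. In H23 both genes were near the floor, at most 0.302 CPM in either library, so the difference rests mainly on EBC1 and H1975. Whether they count the same reads was not tested.

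A pair of small noncoding RNAs moved past 2-fold in opposite directions in the lines, and the difference between the lines was not tested. RN7SL5P had a log2 ratio of -2.94 in H23 and 1.36 in H1975, from 92 counts in PD-L1s and 925 in untreated H23, and 1091 in PD-L1s and 455 in untreated H1975. The copy of SNORA69 on chromosome X had 1.68 in H23 and -1.59 in H1975, from 58 counts in PD-L1s and 19 in untreated H23, and 15 in PD-L1s and 59 in untreated H1975.

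Below the expression filter, 4 genes reached 50 counts in a PD-L1s library and stayed under 10 in the untreated one. KRT6A had 119 counts in PD-L1s and 2 in untreated H1975, KRT1 had 89 in PD-L1s and 0 in untreated H1975, and S100A7A had 50 in PD-L1s and 0 in untreated H1975. The pseudogene RP11-452K12.6 had 52 counts in PD-L1s and 6 in untreated H23.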

How the results depend on the processing

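The paired fit called 14 genes, all higher. Counts were 5 (all 5 among the 14) with DESeq2 size factors in edgeR, 8 (7 among the 14) with the DESeq2 test, 4 (all 4) with limma-voom, 3 (all 3) without a filter and 5 (all 5) with each pair thinned to equal depth. With all 8 libraries 5 were called, 4 higher and 1 lower, and 3 of the 14 kept the call, EGR1 not among them. A minimum count of 50, which tests fewer genes, gave 23, with 2 lower, and the older edgeR method, added after seeing the data, gave 28, 23 higher and 5 lower. With library size alone 14 were called, with robust estimation 10 and with protein-coding genes 12. Leaving out a pair gave 0 to 3 calls, 0 to 1 higher and 0 to 2 lower. Without the pairing by line 0 were called and 3 genes had an unadjusted p under 0.05. FOSB, FOS, EGR1 and each other called gene stayed positive in every setting run.

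For the difference from EBC1 and H820, DESeq2 called 14 genes (5 higher, 9 lower), neither SNORD3C nor RP11-160E2.6 among them, and 0 were called with limma-voom, without a filter and without the pairing by line. Leaving out a pair gave 0 to 1464 calls, 0 to 329 higher and 0 to 1135 lower. In the fit of PD-L1s against untreated spheres, not in this difference, the sign turned for 2 of the genes followed. The change of RP11-160E2.6 was log2 -0.40 in the main fit and 2.02 with all 8 libraries. That of CD274 was 0.31 in the main fit, -0.95 without the H1975 pair and 0.35 without the H23 pair. Within lines, a prior count of 1 gave 23 falls in H23 and 8 in H1975. A minimum count of 20 gave 77 rises and 62 falls in H23, and 54 rises and 38 falls in H1975. The cause of each change was not tested, except that fewer or more genes and libraries enter by construction.

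With 1 library for each line and condition, small changes and genes of low count are not resolved. The H23 PD-L1s library is the shallowest of the 4.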

Other observations

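RNA of the growth factor receptors EGFR and MET was detected in both lines. Their part in the response was not tested. EGFR had 62.7 CPM in PD-L1s and 57.9 CPM in untreated H23, and 625 CPM in PD-L1s and 621 CPM in untreated H1975. MET, the receptor for hepatocyte growth factor, had 69.5 CPM in PD-L1s and 65.6 CPM in untreated H23, and 563 CPM in PD-L1s and 524 CPM in untreated H1975. Of 17 receptors and ligands of this kind edgeR called 0, 1 was higher at an unadjusted p under 0.05, and their median was log2 0.06.

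Other lists had 0 or 1 member called, beside a median of log2 -0.0044 for all genes. JAK-STAT targets had a median of log2 -0.02, the integrated stress response -0.03, G1/S genes 0.01, serum response factor and MRTF targets 0.02 with CYR61 called, and sphere markers 0.07. Epithelial markers had -0.01, mesenchymal genes -0.05, lung lineage genes -0.04 and the squamous and skin markers 0.08. Fibroblast markers had 0.05 over 8 tested and endothelial markers, the lowest of the lists, -0.19 over 5 tested. The heat shock and immune checkpoint lists were below 0 with TMM, at log2 -0.02 and -0.01, and above 0 with library size alone. Of 8 red blood cell markers 0 passed the filter.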
